A study of Mus musculus with 12 samples.

Results

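Interferon-stimulated genes are the antiviral genes that a cell switches on when interferon binds its receptor. Here 9 of them were followed through the cerebellum of a mouse model of spinocerebellar ataxia type 1: the transcription factor gene Irf7, the RNA-binding Ifit1 and Ifit3, the ubiquitin-like modifier Isg15 and its protease Usp18, and the antiviral effectors Oasl2, Rsad2, Bst2 and Ifi27. They were taken by name, as a read-out of an innate response to repeat RNA or to a compound, with earlier results of these data known. Each symbol matched 1 of the 55401 gene identifiers in the count tables, and all 9 were among the 19378 genes with enough reads to test.

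The libraries came from the cerebellum of 12 mice, 1 library per animal number, in 3 groups of 4. WT DMSO mice were wild type (animals 413, 425, 426 and 431). Het DMSO mice (409, 411, 420 and 429) and Het Hit 2 mice (410, 421, 422 and 430) were heterozygous Atxn1 154Q/2Q knock-ins, which carry an expanded CAG repeat in 1 copy of their own Atxn1 gene. Hit 2, a compound known here by its code name, was given at 25 mg/ml in DMSO by intraperitoneal injection. The other 2 groups received DMSO alone, so every mouse was exposed to the solvent, at less than 4 ml/kg. Injections began at 18 weeks of age, ran daily for 5 days, paused for 2 days and ran for 5 more, and the mice were perfused with saline under urethane at 20 weeks before the cerebellum was removed. The labels used here give no strain, sex or litter, and p-values measure the spread between these animals alone.

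In a cell, viral or misplaced RNA and DNA are recognised by sensors such as RIG-I, MDA5, cGAS and the Toll-like receptors, which lead through IRF transcription factors to secreted type I interferon. Interferon then binds its receptor on the same or a neighbouring cell, JAK kinases at the receptor are activated, and a transcription factor complex that contains IRF9 moves to the nucleus and binds the interferon-stimulated response element (ISRE) of target promoters. In brain tissue, microglia, astrocytes, endothelium and neurons can all express such targets.

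The promoter element that interferon signalling acts on is shown first, for the 5 genes whose promoter held it. RefSeq promoters (GRCm38.p6, 250 bases before to 50 bases after the transcription start) were at hand for 7 of the 9 genes, which leaves Usp18 and Ifi27 without one. The ISRE core was searched on both strands as GAAA, 2 bases of any kind and GAAA, or the reverse complement of that. It was present in 5 of the 7 promoters (71.4%), against 3.44% of all 32851 promoters in the table. Among a wider list of other interferon-stimulated genes, 12 of 33 promoters (36.4%, 10 of 26 genes) held it. The gamma-activated site TTCNNNGAA was found in 1 of the 7, that of Bst2, and in 8.30% of all promoters. A match is a stretch of letters and not a measured binding site.

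The 5 promoters with a match are printed from 160 to 51 bases before the start, 5′ to 3′ on the strand of the gene, with the ISRE matches in capitals. They lie at chr19:34640729-34640838 (plus strand) for Ifit1, chr19:34583369-34583478 (plus strand) for Ifit3, chr4:156200869-156200978 (minus strand) for Isg15, chr12:26456503-26456612 (minus strand) for Rsad2 and chr8:71537523-71537632 (minus strand) for Bst2.
Ifit1: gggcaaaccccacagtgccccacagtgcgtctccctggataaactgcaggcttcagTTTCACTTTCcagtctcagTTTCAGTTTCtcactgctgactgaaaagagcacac
Ifit3: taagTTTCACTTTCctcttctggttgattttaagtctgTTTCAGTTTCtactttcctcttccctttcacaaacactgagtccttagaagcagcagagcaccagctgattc
Isg15: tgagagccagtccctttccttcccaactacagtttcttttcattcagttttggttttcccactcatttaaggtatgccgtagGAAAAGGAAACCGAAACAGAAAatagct
Rsad2: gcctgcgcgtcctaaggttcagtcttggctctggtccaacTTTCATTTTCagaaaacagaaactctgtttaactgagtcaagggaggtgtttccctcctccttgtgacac
Bst2: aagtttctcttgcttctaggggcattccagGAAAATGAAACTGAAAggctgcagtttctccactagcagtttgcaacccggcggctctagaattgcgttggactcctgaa

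In Ifit1 the matches lay 104 to 95 and 85 to 76 bases before the start, and in Ifit3 156 to 147 and 122 to 113 bases before it. Isg15 held overlapping matches in a single run of 22 bases, 78 to 57 bases before the start. Bst2 held a run of 16 bases, from 130 to 115 bases before, and Rsad2 a single match from 120 to 111. The windows of Irf7 and Oasl2 held no match to these letters. These are letters of the reference genome, and the promoters of these mice were not read.

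Depth and library quality set how firmly the values can be read. The libraries held 15855751 to 45265719 read pairs assigned to genes on the matching strand. Libraries 409 and 411, both Het DMSO, stood apart from the rest: 411 lay at the end of the first principal component (44.3% of the variance) and 409 at the end of the second. The label of 411 is cerebellum, yet its summed granule cell markers reached 203 CPM (counts-per-million, scaled by trimmed mean of M values) against 3999 to 8785 CPM in the other 11 libraries. Its summed Purkinje cell markers reached 766 CPM against 3612 to 8363. Only WT libraries 425 and 426 expressed Xist, at 1393 and 1437 CPM, against at most 0.295 CPM in the other 10. Mice of both sexes were therefore present in WT DMSO and in neither Het group. In whole cerebellum, fewer cells of a type and less RNA per cell cannot be told apart.

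The 9 genes were expressed at low levels. Total reads over the 12 libraries ran from 257 for Isg15 to 3651 for Ifi27, and single libraries held between 7 and 522 reads of a gene. Levels were compared between genes per kilobase of exon (RPKM, from merged exons in GENCODE M21, GRCm38). Ifi27 had the highest mean at 7.86 RPKM and Ifit3 followed at 4.89. Bst2 averaged 1.25, Isg15 0.990, Ifit1 0.772, Oasl2 0.674, Irf7 0.573, Usp18 0.398 and Rsad2 0.228 RPKM. Ifit3 exceeded Bst2 in 12 of 12 libraries, by 2.39 times the larger SD of the pair. Usp18 exceeded Rsad2 in 11 of 12 libraries, by 1.16 times the larger SD. All other neighbours in the order, Ifi27 and Ifit3 included, differed by less than 1 SD.

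**Figure D1:**
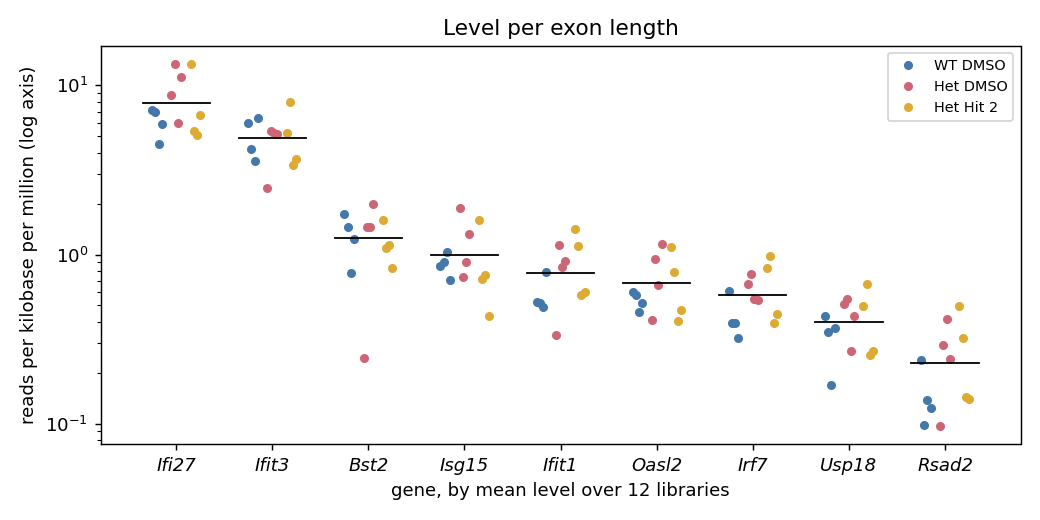
Level of each gene per kilobase of exon (RPKM, log axis) in the 12 libraries, coloured by group, with genes ordered by their mean. Ifi27 and Ifit3 sit above the other 7 genes, and the 3 groups intermingle for each gene.

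Variation between animals was larger than counting error for each of the 9. The coefficient of variation over the 12 libraries was 31.1% for Ifit3 and 57.0% for Rsad2, the ends of the range, against 6.73% and 20.6% from counting at their mean read number. The highest library exceeded the lowest by 2.87 times for Oasl2 at one end and 8.09 times for Bst2 at the other.

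Irf7 encodes the transcription factor that amplifies interferon production, and lies at chr7:141262706-141266481 on the minus strand. Its level was 2.28, 1.48, 1.49 and 1.21 CPM in WT libraries 413, 425, 426 and 431, then 2.51, 2.88, 2.05 and 2.04 CPM in Het DMSO libraries 409, 411, 420 and 429, and 3.13, 3.71, 1.49 and 1.69 CPM in Het Hit 2 libraries 410, 421, 422 and 430. Of the Het DMSO libraries, 420 and 429 lay below WT library 413 and above the other WT libraries. The Hit 2 group divided, with 410 and 421 above every other library and 422 and 430 within the WT range. Group means were 1.62 ± 0.464, 2.37 ± 0.402 and 2.50 ± 1.08 CPM (SD, n = 4 each). Reads from the opposite strand made up 62.9% of the reads over the Irf7 identifier, against 36.2% for Usp18, 23.7% for Ifit1, 22.8% for Isg15 and under 1% for the other 5 genes. The values of these 4 genes depend on the strand-specific count that was used here. With counts on both strands, Ifit1 was at -0.00795 in Het Hit 2 against Het DMSO, Irf7 at -0.14 in the same comparison and Isg15 at 0.0923 in Het Hit 2 against WT DMSO, each of the opposite sign to the strand-specific estimate.

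Ifit1 and Ifit3 encode related tetratricopeptide-repeat proteins, of which Ifit1 binds RNA whose cap lacks the host's methyl marks. They are neighbours on chromosome 19, at chr19:34640871-34650009 and chr19:34583531-34588731, both on the plus strand. In the same library order as for Irf7, Ifit1 reached 1.39, 1.37, 1.31 and 2.10 CPM in WT DMSO, 0.887, 3.03, 2.24 and 2.42 CPM in Het DMSO and 3.76, 2.97, 1.54 and 1.60 CPM in Het Hit 2. Its lowest value, in 409, and its next to highest, in 411, belonged to the same group. Means were 1.54 ± 0.376, 2.14 ± 0.903 and 2.47 ± 1.09 CPM (SD, n = 4 each).

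Ifit3 reached 10.5, 7.37, 6.20 and 11.2 CPM in WT DMSO, 4.31, 9.34, 9.15 and 9.05 CPM in Het DMSO and 9.09, 13.9, 5.89 and 6.43 CPM in Het Hit 2. The Het DMSO libraries other than 409 lay close together and inside the WT range, while the Hit 2 libraries spanned more than that range on both sides. Means were 8.80 ± 2.40, 7.96 ± 2.44 and 8.84 ± 3.68 CPM (SD, n = 4 each). Ifit3 has a near copy, Ifit3b, which averaged 5.14 CPM and was likewise lowest in 409 and highest in 421. Reads that map to both were left out of the counts, so the division between Ifit3 and Ifit3b is uncertain.

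Isg15 encodes a ubiquitin-like protein that is attached to other proteins during the interferon response (chr4:156199424-156200818, minus strand). It reached 0.642, 0.683, 0.785 and 0.537 CPM in WT DMSO, 1.43, 0.555, 0.685 and 1.00 CPM in Het DMSO and 1.22, 0.544, 0.575 and 0.328 CPM in Het Hit 2. These values rest on 7 to 58 reads a library. The WT libraries were the most even of the 3 groups, and libraries 409 and 410 were the highest. Means were 0.662 ± 0.102, 0.917 ± 0.389 and 0.666 ± 0.383 CPM (SD, n = 4 each).

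Usp18 encodes the protease that removes Isg15 from its targets and also dampens signalling at the interferon receptor (chr6:121245906-121270917, plus strand). It reached 1.21, 0.966, 0.471 and 1.03 CPM in WT DMSO, 1.43, 1.51, 0.747 and 1.21 CPM in Het DMSO and 1.39, 1.88, 0.713 and 0.751 CPM in Het Hit 2. Library 421 was the highest and 426 the lowest, and the groups overlapped. Means were 0.920 ± 0.317, 1.22 ± 0.344 and 1.18 ± 0.558 CPM (SD, n = 4 each).

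Oasl2, a member of the oligoadenylate synthetase family (chr5:114896936-114912234, plus strand), reached 3.82, 3.68, 2.93 and 3.31 CPM in WT DMSO, 2.61, 5.96, 4.23 and 7.38 CPM in Het DMSO and 7.06, 4.99, 2.58 and 3.00 CPM in Het Hit 2. Of the Het DMSO libraries, 411, 420 and 429 were above every WT library and 409 was below them. In the Hit 2 group 410 and 421 were above the WT range, 422 was below it and 430 inside it. Means were 3.43 ± 0.398, 5.05 ± 2.07 and 4.41 ± 2.06 CPM (SD, n = 4 each).

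Rsad2 encodes viperin, an enzyme whose nucleotide product stalls viral polymerases (chr12:26442746-26456452, minus strand). It reached 1.03, 0.424, 0.602 and 0.537 CPM in WT DMSO, 0.419, 1.26, 1.80 and 1.04 CPM in Het DMSO and 2.14, 1.38, 0.621 and 0.610 CPM in Het Hit 2. Its pattern resembled that of Oasl2 in part. Het DMSO libraries 411, 420 and 429 lay above the WT libraries, 409 lay below them, and 410 and 421 were the high Hit 2 libraries. The placements of 429 (1.04, beside 1.03 in WT library 413) and 409 (0.419, beside 0.424 in WT library 425) were near ties. Means were 0.649 ± 0.267, 1.13 ± 0.573 and 1.19 ± 0.732 CPM (SD, n = 4 each), on 12 to 37 reads a library.

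Bst2 encodes tetherin, which holds budding virus particles at the cell surface (chr8:71534255-71537456, minus strand). It reached 1.57, 1.32, 0.706 and 1.12 CPM in WT DMSO, 0.222, 1.31, 1.31 and 1.79 CPM in Het DMSO and 1.45, 0.989, 1.03 and 0.751 CPM in Het Hit 2. The 409 value rests on 9 reads, and its 95% exact Poisson interval of 0.101 to 0.421 CPM, which covers counting error alone, lay below every other library's value. Means were 1.18 ± 0.365, 1.16 ± 0.665 and 1.06 ± 0.290 CPM (SD, n = 4 each).

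Ifi27 encodes a small membrane protein of the interferon response (chr12:103434211-103440239, plus strand). It reached 10.5, 10.2, 6.64 and 8.64 CPM in WT DMSO, 12.9, 19.5, 8.84 and 16.4 CPM in Het DMSO and 19.6, 7.86, 7.52 and 9.81 CPM in Het Hit 2. The Het DMSO libraries other than 420 were above every WT library, and 410 was the highest of the 12 while the other Hit 2 libraries were within the WT range. Means were 8.99 ± 1.77, 14.4 ± 4.60 and 11.2 ± 5.71 CPM (SD, n = 4 each).

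**Figure D2:**
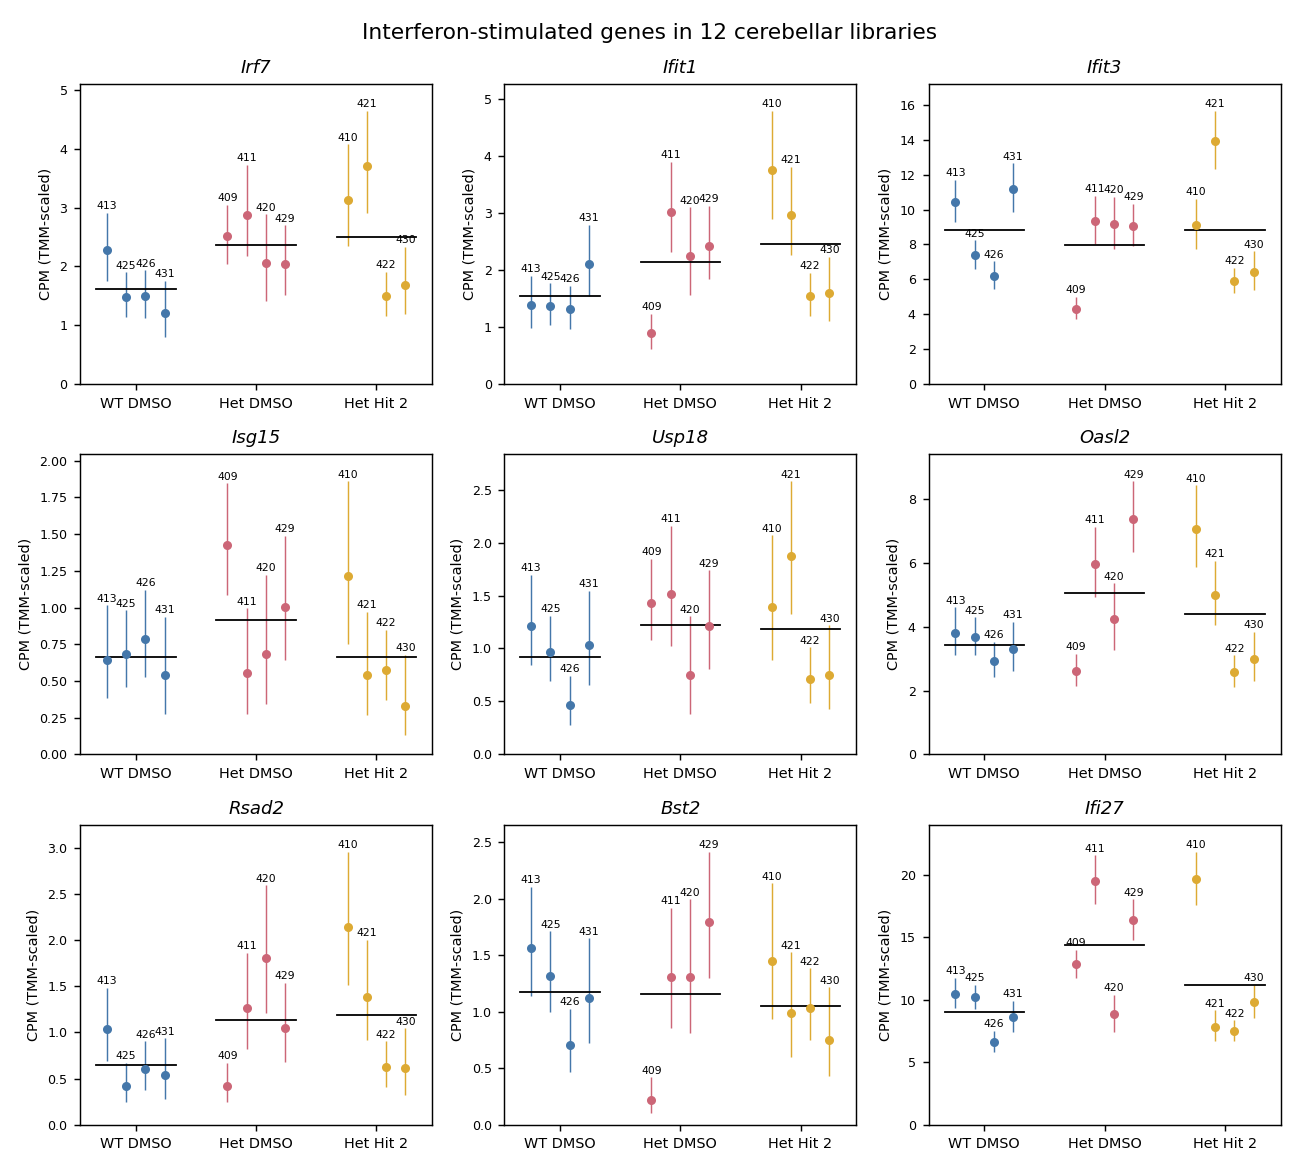
Counts-per-million (CPM) of each gene in the 12 libraries by group, with the 95% exact Poisson interval of each count and the group mean as a line. The Het Hit 2 values of Irf7, Ifit1 and Oasl2 divide into a high pair, 410 and 421, and a low pair, 422 and 430.

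The first comparison asked whether carrying the expanded Atxn1 allele goes with an interferon response. The groups differed in sex as well as genotype, as only WT DMSO held libraries that expressed Xist. Comparing Het DMSO with WT DMSO, 0 of the 9 genes passed an adjusted p of 0.05 in edgeR's quasi-likelihood test, where 0.00516% of all tested genes did (1 gene, which was lower). DESeq2 and limma also passed 0 of the 9, here and in the comparisons that follow. None had an unadjusted p under 0.05, against 7.11% of all genes, and the groups overlapped for 9 of 9, where 4.39% of all genes had groups that did not overlap. Estimates were above 0 for 7 genes and below 0 for Ifit3 and Bst2, with a median log2 fold change of 0.48. Over all genes 55.8% of estimates were above 0 and the median was 0.05.

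Rsad2 had the highest estimate, a log2 fold change of 0.78 (SE 0.52, 95% interval -0.36 to 1.92, edgeR adjusted p = 0.625). Ifi27 came nearest to the threshold, at 0.68 (SE 0.33, interval -0.04 to 1.40, unadjusted p = 0.0616, edgeR adjusted p = 0.616). Irf7 and Oasl2 both stood at 0.55, with intervals of -0.16 to 1.27 and -0.24 to 1.34. Estimates for Isg15, Ifit1 and Usp18 were 0.48, 0.47 and 0.43, with SEs of 0.41, 0.40 and 0.40. Ifit3 was at -0.15 (interval -0.86 to 0.57) and Bst2 at -0.04 (interval -1.13 to 1.04). The intervals of all 9 included 0, and for 8 of them, all but Ifit3, they also included a doubling.

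Single-gene exact permutation tests over the 70 ways of dividing 8 libraries, which can give no p below 0.0286, gave the lowest two-sided p for Irf7 and Ifi27, at 0.0857 each. Ifit3 and Bst2 were above 0 without library 409, at 0.06 and 0.32. Isg15 stood at 0.17 without the same library. The lowest alternative estimates were 0.26 for Ifit1 (without 411), 0.31 for Oasl2 (without 429) and 0.46 for Rsad2 (without 420). Irf7 stood at 0.33 and Usp18 at 0.11 without both 409 and 411. With a sex covariate, Ifit3 stood at -0.45, Bst2 at -0.23, Usp18 at 0.13, Ifit1 at 0.29 and Rsad2 at 0.49. Without both 409 and 411, all 9 estimates were above 0 with a median of 0.40, beside -0.01 over all genes, and again none passed.

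The second comparison asked whether Hit 2 itself goes with an interferon response in knock-in mice. It shares its Het DMSO libraries with the first. Comparing Het Hit 2 with Het DMSO, 0 of 9 genes passed, and 0% of all genes did. None had an unadjusted p under 0.05 (1.55% of all genes), and the groups overlapped for 9 of 9, with 1.03% of all genes apart. Estimates were above 0 for Ifit1, Ifit3, Irf7 and Rsad2 and below 0 for the other 5. Their median was -0.07, beside -0.04 over all genes, of which 44.3% were above 0.

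The lowest estimate was Isg15 at -0.50 (SE 0.41, 95% interval -1.40 to 0.40, edgeR adjusted p = 0.898). Ifi27 followed at -0.37 (interval -1.08 to 0.35). The highest was Ifit1 at 0.20 (SE 0.40, interval -0.67 to 1.08, edgeR adjusted p = 0.913). Ifit3 stood at 0.15 (interval -0.57 to 0.87), Rsad2 at 0.08 (interval -1.05 to 1.20) and Irf7 at 0.07 (interval -0.64 to 0.78). Usp18 stood at -0.07 (interval -0.94 to 0.80), Bst2 at -0.12 (interval -1.22 to 0.98) and Oasl2 at -0.20 (interval -0.99 to 0.59). Every interval included 0, and intervals of this width do not show that the groups were alike. Without 409 and 411 the median was -0.19, with 3 estimates above 0 and 6 below. Leaving out single libraries moved the median between -0.30 (without 410) and 0.12 (without 422). Under limma with library quality weights it was -0.42, beside 0.004 over all genes, again with 3 estimates above 0 and 6 below. Isg15 ranged from -0.95 (without 410) to -0.20 (without 409), and Ifi27 from -0.79 (without 410) to -0.19 (without 409 and 411).

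The third comparison set Het Hit 2 against WT DMSO, in which genotype and compound differ together and the WT libraries are shared with the first. Sex differed as well, as only WT DMSO held libraries that expressed Xist. Again 0 of 9 genes passed, where 0.00516% of all genes did (1, which was lower). None had an unadjusted p under 0.05 (1.71% of all genes), and 9 of 9 overlapped, with 6.32% of all genes apart. Estimates were above 0 for 7 genes and below 0 for Isg15 and Bst2. The median was 0.35 beside 0.02 over all genes. Without library 410 the median was 0.03, with 5 estimates above 0.

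Rsad2, Ifit1 and Irf7 had the highest estimates, at 0.85 (SE 0.52, 95% interval -0.29 to 1.99), 0.67 (SE 0.40, interval -0.20 to 1.55) and 0.62 (SE 0.33, interval -0.09 to 1.34), each with an edgeR adjusted p of 1.00. Without 410 the estimates of Rsad2 and Ifit1 were 0.41 and 0.39, and with counts on both strands that of Irf7 was 0.23. Oasl2 and Usp18 both stood at 0.35 and Ifi27 at 0.31. Oasl2 stood at 0.0258 and Ifi27 at -0.11 without 410, and Usp18 at 0.0354 without 421. A sex covariate gave 0.0623 for Usp18, -0.30 for Ifit3, -0.36 for Bst2, 0.15 for Isg15 and 0.57 for Rsad2. Ifit3 stood at 0.004 (interval -0.71 to 0.72), Isg15 at -0.02 and Bst2 at -0.16. The test of any difference among the 3 groups, which 0.00516% of all genes passed and for which 3.11% had an unadjusted p under 0.05, passed none of the 9 and gave its lowest unadjusted p for Ifi27, at 0.159 (edgeR adjusted p = 0.977).

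**Figure D3:**
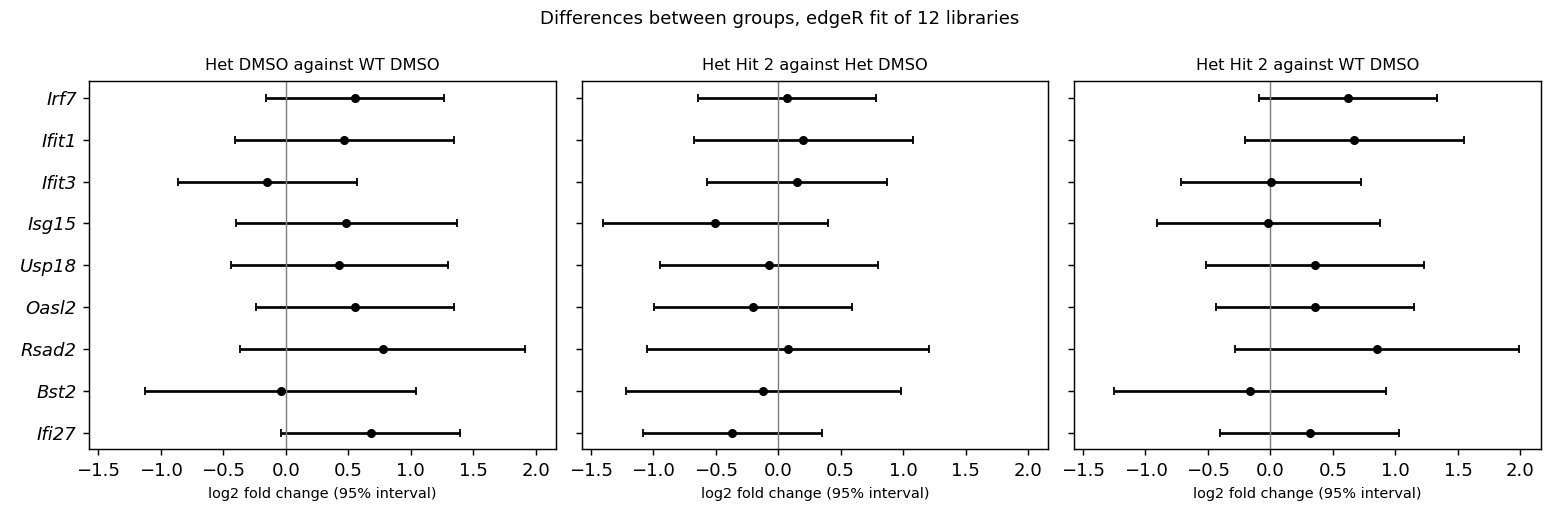
Log2 fold change of each gene with its 95% interval in the 3 comparisons, from 1 edgeR fit of the 12 libraries. Every interval crosses 0, and the points lie mostly to the right of 0 against WT DMSO and on both sides of it between the Het groups.

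Differences between animals cut across the groups. The 9 genes summed to 32.9, 27.5, 21.1 and 29.7 CPM in the WT DMSO libraries, to 26.7, 45.4, 31.1 and 42.3 CPM in Het DMSO and to 48.9, 38.3, 22.0 and 25.0 CPM in Het Hit 2. Library 410 had 9 of 9 genes above their median over the 12 libraries and 411 had 8, whereas 422 and 430, which received the same compound as 410, had 0. Library 410 held the highest value of 3 genes (Ifit1, Rsad2 and Ifi27) and 421 that of another 3 (Irf7, Ifit3 and Usp18). The 2 that were highest in 429 were Oasl2 and Bst2. Library 409 held the lowest value of Ifit1, Ifit3, Rsad2 and Bst2 and the highest of Isg15.

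Of the 36 pairs of genes, 34 had a Spearman coefficient above 0 over the 12 libraries, with a median of 0.46. Ifit1 and Rsad2 were the most alike (0.84), then Ifit1 and Oasl2 (0.80) and Irf7 and Usp18 (0.77). Isg15 was the least alike, with a coefficient of -0.45 to Ifit3 and -0.19 to Ifit1. Without 409 and 411 the median was 0.50 and 35 pairs were above 0. These coefficients are a description: the points share their library, its depth and its composition.

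Markers of other cell types were read in the same libraries. The 12 microglial markers, such as Cx3cr1 and P2ry12, summed to 82.3 to 117 CPM in WT DMSO, 94.1 to 224 CPM in Het DMSO and 84.0 to 164 CPM in Het Hit 2, with the top values in 411 and 410. The 10 endothelial markers summed to 215 to 265, 236 to 335 and 213 to 327 CPM, again highest in 411 and 410. The 10 oligodendrocyte markers reached 6824 CPM in 411 and 5667 CPM in 410, against 1327 to 3560 CPM in the other libraries. Their part in the high values of the 9 genes in those libraries was not tested.

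The 10 choroid plexus markers, such as Ttr, summed to 95.2 to 1743 CPM in WT DMSO, 107 to 2980 CPM in Het DMSO and 74.6 to 1653 CPM in Het Hit 2, with the high values in 429, 425, 410 and 413. Bst2 was highest in 429, 413 and 410. The part of these markers in the values of the 9 genes was not tested.

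Several marker lists also differed between the groups in the direction of their estimates. In Het DMSO against WT DMSO, estimates were above 0 for 12 of 12 microglial genes (median 0.52), 10 of 10 oligodendrocyte genes (0.65) and 8 of 10 choroid plexus genes (0.19), beside 7 of the 9 interferon-stimulated genes. With 409 and 411 left out these became 10 of 12 (0.11), 5 of 10 (-0.0015) and 10 of 10 (0.92), and 5 of 5 red cell genes were above 0 (0.95), beside 9 of the 9. In Hit 2 against its vehicle, 0 of the microglial, oligodendrocyte and choroid plexus genes were above 0, with medians of -0.32, -0.52 and -0.90. Red cell genes were above 0 for 5 of 5 (0.89). Leaving out 409 and 411 gave 10 of 12 (0.12), 10 of 10 (0.11), 0 of 10 (-1.82) and 3 of 5 (0.02). In Het Hit 2 against WT DMSO, 11 of 12 microglial genes (0.18), 10 of 10 oligodendrocyte genes (0.17), 0 of 10 choroid plexus genes (-0.89) and 5 of 5 red cell genes (0.93) were above 0, beside 7 of the 9. Neuronal and astroglial lists went the other way against WT DMSO. In Het DMSO, 0 of 10 Purkinje cell genes (-0.74) and 0 of 10 granule cell genes (-0.36) were above 0. So was 1 of 10 astroglial genes (-0.14). Without 409 and 411 these became 0 of 10 (-0.53), 3 of 10 (-0.10) and 3 of 10 (-0.15). In Het Hit 2, 0 of 10 of each list were above 0 (-0.56, -0.27 and -0.18). The part of these lists in the estimates of the 9 genes was not tested.

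Summed astroglial markers were 2694 to 2929 CPM in WT DMSO, 2098 to 2621 CPM in Het DMSO and 2375 to 2479 CPM in Het Hit 2. Summed Purkinje cell markers were 8009 to 8363, 766 to 7581 and 3612 to 7037 CPM, so both lists were lower in every Het library than in every WT library. Library 421, where Irf7, Ifit3 and Usp18 peaked, had 90.5 CPM of microglial and 253 CPM of endothelial markers, both inside the WT range, and 93.4 CPM of choroid plexus markers, just below it.

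The 10 markers of blood-borne immune cells summed to 0.665 to 5.68 CPM, and 3 of them were testable. These were Ptprc, which microglia also express, with 655 reads over the 12 libraries, and the neutrophil genes S100a9 and S100a8, with 226 and 155 reads. The lymphocyte genes Cd3e and Ms4a1 had 15 reads and 1 read. Haemoglobin and other red cell markers summed to 3.62 to 67.0 CPM, with high values in 410, 421 and 431 and low values in 409 and 411. No gene of the 9 cell type lists passed the adjusted threshold in the edgeR fit of 12 libraries. Pcp4, a Purkinje cell gene named for this result, passed in Het Hit 2 against WT DMSO without 409 and 411 (log2 fold change -0.83, edgeR adjusted p = 0.0264) and under limma with library quality weights (-0.81, adjusted p = 0.0348).

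**Figure D4:**
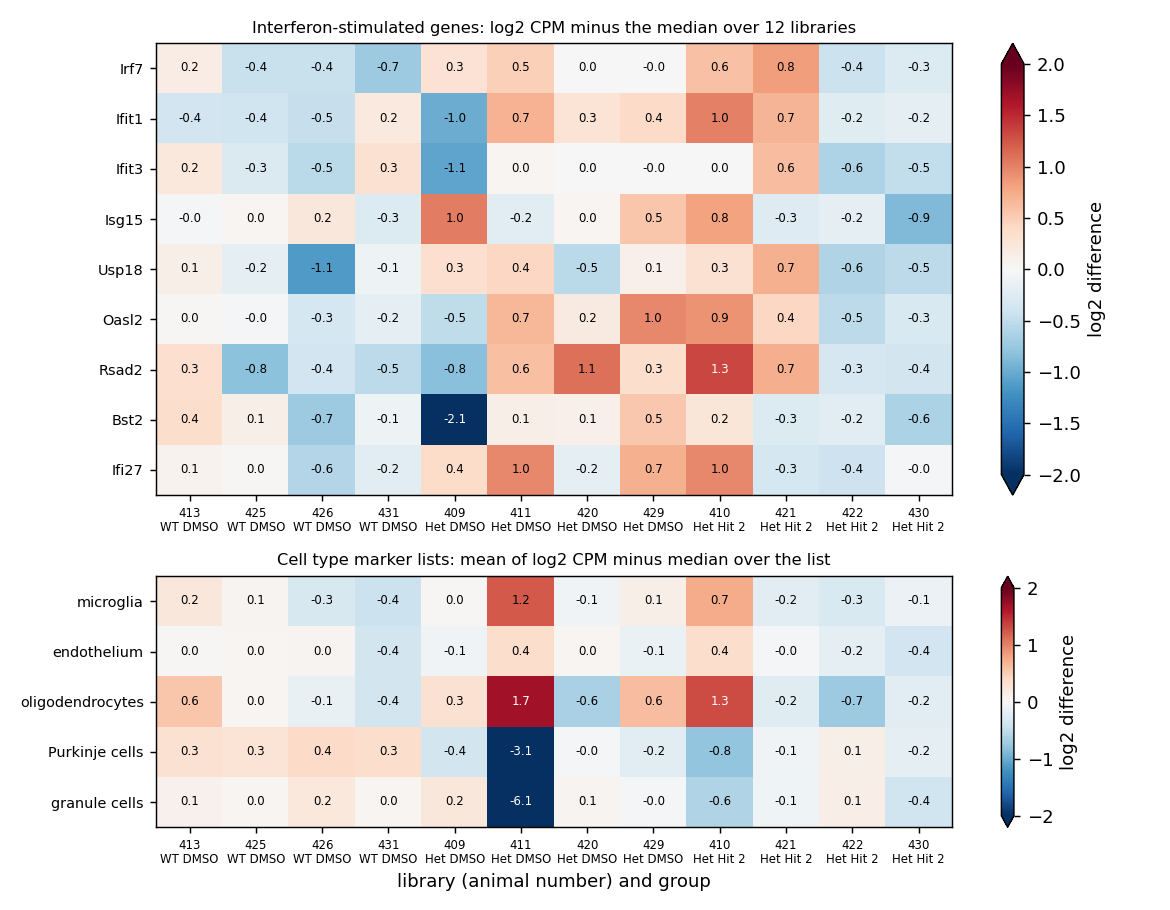
Log2 CPM of the 9 genes minus each gene's median over 12 libraries (top) and the mean of the same quantity over cell type marker lists (bottom), by library and group; the colour scale stops at 2 in either direction. Libraries 410 and 411 are high for most of the 9 genes and for microglial and oligodendrocyte markers, while 421 is high for most of the 9 and not for those markers.

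The genes whose levels most resembled the mean standardised profile of the 9 were sought among 16616 others with a mean of at least 1 CPM. Parp14, an interferon-induced ADP-ribosyltransferase, came first with a Spearman coefficient of 0.92 over 12 libraries. It was followed by Trim25 (0.90), the ubiquitin ligase that acts on RIG-I, and Cd274 (0.90), which encodes the immune checkpoint ligand PD-L1. Dubr, Fam161a and Cyp2j12 also reached 0.90, Atp13a4 and Gm43059 0.89, and Gbp3, an interferon-induced guanylate-binding GTPase, and Uprt 0.88. Without 409 and 411 the coefficients of these 10 ran from 0.85 for Atp13a4 to 0.94 for Parp14. The 10 are ranks among many candidates over few libraries and carry no test.

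The interferons themselves were barely present. Of 10 ligand genes, 8 (Ifnb1, Ifna1, Ifna5, Ifne, Ifnk, Ifng, Ifnl2 and Ifnl3) had 0 reads in all 12 libraries, Ifna2 had 7 reads in 4 libraries and Ifna4 1 read in WT library 431. Their sum did not exceed 0.0523 CPM in WT DMSO, 0.101 CPM in Het DMSO or 0.0494 CPM in Het Hit 2. The alpha genes are close copies of each other, and reads shared between copies were not counted. None of the 10 could be tested.

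Of 13 receptor and signalling genes, 12 averaged at least 1 CPM, all 13 were tested and none passed in any comparison. Relative to WT DMSO, 8 of 13 estimates were above 0 in Het DMSO (median log2 fold change 0.06) and 7 in Het Hit 2 (0.04). Between the Het groups, 8 of 13 were above 0 with Hit 2 (0.05). Without libraries 409 and 411 these became 6 (-0.01), 7 (0.03) and 7 (0.05). Socs1, a feedback inhibitor of JAK kinases, had 1.52 ± 0.184 CPM in WT DMSO and 0.898 ± 0.142 in Het DMSO (SD, n = 4), without overlap (0.747 to 1.03 against 1.34 to 1.78). Its log2 fold change of -0.75 (SE 0.26, unadjusted p = 0.0136) had an edgeR adjusted p of 0.616. Socs3, a related inhibitor, stood at 1.32 ± 0.241, 1.37 ± 0.137 and 1.80 ± 0.525 CPM in the 3 groups (SD, n = 4 each).

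All 19 sensors and adaptors of foreign nucleic acid were tested, and none passed. Relative to WT DMSO, 16 of 19 estimates were above 0 in Het DMSO (median 0.23) and 16 in Het Hit 2 (median 0.11). With Hit 2 against its vehicle, 7 of 19 were (median -0.11). Without libraries 409 and 411 these became 11 of 19 (median 0.08), 14 (0.09) and 11 (0.01). Traf3, an adaptor between sensors and IRF kinases, had 53.3 ± 3.23 CPM in WT DMSO and 73.0 ± 25.2 in Het DMSO (SD, n = 4; log2 fold change 0.45, SE 0.20, edgeR adjusted p = 0.616). Adar, which edits double-stranded RNA and so keeps it from the sensors, had 235 ± 6.95 and 294 ± 76.7 CPM in the same groups (log2 fold change 0.33, SE 0.16, edgeR adjusted p = 0.616). Both were highest in library 411, and without 409 and 411 their estimates were 0.08 and -0.05.

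Eif2ak2, the kinase PKR that halts translation on binding double-stranded RNA, is described here because of its values. It had 7.21, 6.41, 6.56 and 7.16 CPM in the WT DMSO libraries, 2.27, 10.5, 9.96 and 11.5 CPM in Het DMSO and 11.8, 11.7, 8.90 and 11.0 CPM in Het Hit 2. Apart from 409, every Het library was above every WT library. The log2 fold change of Het Hit 2 over WT DMSO was 0.67 (SE 0.37) with an edgeR adjusted p of 1.00. It was 0.65 with an edgeR adjusted p of 0.0431 without libraries 409 and 411, and 0.67 with an adjusted p of 0.0275 under limma with library quality weights. In the other 19 alternatives it did not pass. Between Het Hit 2 and Het DMSO the estimate was 0.35 (SE 0.37, edgeR adjusted p = 0.898), and 0.01 without 409 and 411. In Het DMSO against WT DMSO it was 0.32 (SE 0.37, edgeR adjusted p = 0.731), and without these libraries 0.64 (unadjusted p = 0.000839, edgeR adjusted p = 0.208).

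Interferon also raises genes of antigen presentation by MHC class I. All 10 on the list were tested, and none passed. Relative to WT DMSO, 8 of 10 estimates were above 0 in Het DMSO (median 0.41) and 7 in Het Hit 2 (median 0.18). With Hit 2 against its vehicle, 2 of 10 were (median -0.30). Without 409 and 411 these became 8 (0.29), 7 (0.16) and 3 (-0.07). Tap2, a subunit of the peptide transporter, had 11.2 ± 0.186 CPM in WT DMSO, 18.2 ± 5.65 in Het DMSO and 14.8 ± 2.11 in Het Hit 2 (SD, n = 4 each). Its Het DMSO and WT DMSO values did not overlap (14.9 to 26.6 against 11.0 to 11.4), and the log2 fold change of 0.70 (SE 0.19, unadjusted p = 0.00354) had an edgeR adjusted p of 0.616. The highest value was that of 409, and without 409 and 411 the estimate was 0.47. In Het Hit 2 against WT DMSO, Tap2 passed under 1 alternative, limma with library quality weights (0.47, adjusted p = 0.0294). Its partner Tap1 had 2.61 ± 0.413, 4.32 ± 1.48 and 3.31 ± 0.995 CPM in the 3 groups (SD, n = 4 each), also without overlap between Het DMSO and WT DMSO.

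Of 35 other interferon-stimulated genes, 28 had enough reads to test and none passed. Relative to WT DMSO, 22 of 28 estimates were above 0 in Het DMSO (median 0.20) and 25 in Het Hit 2 (median 0.32). With Hit 2 against its vehicle, 18 of 28 were (median 0.06). Without 409 and 411, where 32 could be tested, these became 24 (0.31), 29 (0.32) and 14 (-0.05). Cmpk2, a mitochondrial nucleotide kinase gene that neighbours Rsad2, had 8.60 ± 1.33, 16.8 ± 9.23 and 12.7 ± 2.37 CPM in the 3 groups (SD, n = 4 each), highest in library 411 at 30.2 CPM. In Het DMSO it was 0.97 above WT DMSO on the log2 scale (SE 0.31, unadjusted p = 0.00877, edgeR adjusted p = 0.616), and 0.30 above it without 409 and 411. Parp12, an interferon-induced ADP-ribosyltransferase, had 14.2 ± 2.06, 17.8 ± 3.73 and 22.2 ± 4.93 CPM (SD, n = 4 each). The Het Hit 2 values of 18.6 to 29.3 CPM did not overlap the WT DMSO values of 12.4 to 16.3, and the log2 fold change of 0.65 (SE 0.20, unadjusted p = 0.00625) had an edgeR adjusted p of 1.00. Parp12 passed under limma with library quality weights (0.77, adjusted p = 0.0171). Eif2ak2, Tap2 and Parp12 were the 3 genes of the interferon pathway lists that passed under any of the 21 alternatives. In Het Hit 2 against WT DMSO, limma weights and the fit without 409 and 411 also called more of all genes than the main fit. Those counts over all genes stand in the closing section, and the 3 are not read here as a result about the lists.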

How the data were processed

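RNA was measured in 12 cerebellar libraries, prepared after ribosomal RNA depletion with a directional kit (500 ng of RNA, 13 amplification cycles, paired reads of 100 bases) and aligned with STAR 2.7.10a to GRCm39 (mm39), per the submitters' processing notes. The deposited counts are whole read pairs per gene as STAR tallies uniquely mapped reads, unnormalised, and the annotation release is not given in the sources used here. The column for reads on the strand opposite the first read was used. Reads that matched no gene on that strand, 44.7 to 54.6% of each library, stayed out of library sizes. So did multimapping (4.08 to 7.01%), unmapped (3.70 to 6.53%) and ambiguous reads (0.761 to 1.33%). Symbols, lengths and coordinates came from GENCODE M21 (GRCm38), which matched 55141 of 55401 identifiers. All genes passing filterByExpr were fitted in 1 model of 3 groups with TMM scaling in edgeR 4.0.16 (R 4.3.3), with Benjamini-Hochberg adjustment. Log2 CPM used a prior count of 2. Exact permutation tests were two-sided. Genes named were the 9 members, list genes past the threshold or, where none was, 2 per list with the lowest unadjusted p and a mean of at least 1 CPM, and the 10 most alike. Eif2ak2, Pcp4, near copies, ligands and immune cell markers named for their counts were chosen after their values were seen. Members and lists were chosen with earlier results of these data known. The fit was tested on simulated data. Alternatives used DESeq2 1.42.0, limma 3.58.1, other scalings, filters, strands and sets of libraries.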

Additional observations from a re-analysis of the deposited data

Results flagged for a closer look

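Of 27 checks for a library far from the other 3 of its group (9 genes in 3 groups), 2 were positive, where chance gives about 1 in 20, or 1.35. Ifit1 in WT DMSO library 431 stood at 2.10 CPM, with the nearest library of its group at 1.39 CPM, a gap of 0.895 of the group's range. Ifit3 in Het DMSO library 409 stood at 4.31 CPM, with the nearest at 9.05 CPM, a gap of 0.943 of the range. Library 409 also had the lowest limma quality weight of the 12 (0.0412), and its part in the Ifit3 value was not tested.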

How the results depend on the processing

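No member passed an adjusted p of 0.05 in any comparison under the 21 alternatives, and the lowest adjusted p among them was 0.286 (Ifit1, Het Hit 2 against WT DMSO, limma with library quality weights). Some had an unadjusted p under 0.05 in at least 1 alternative. These were Ifit1, Oasl2, Rsad2 and Ifi27 in Het DMSO against WT DMSO, and Isg15 and Ifi27 in Het Hit 2 against Het DMSO. In Het Hit 2 against WT DMSO they were Ifit1 and Irf7. The share of all genes under each alternative is not given here. Of 567 alternative estimates 517 kept their sign, and 14 of 27 member comparisons kept it throughout. Depth limits Isg15, Rsad2, Usp18 and Bst2 most, and 4 libraries a group leave intervals that include both no change and sizeable ones. No paired analysis was possible because animal numbers do not recur between groups. The cause of the changes below was not tested.

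In Het DMSO against WT DMSO, Ifit3 became -0.45 with a sex covariate, 0.22 with limma weights and 0.0447 without 409 and 411 (-0.28 to 0.0581 leaving out 1 library), and Bst2 became 0.50 and 0.40 (-0.36 to 0.32). In Het Hit 2 against Het DMSO, Ifit1 became -0.00795 with counts on both strands and -0.0733 with limma weights (-0.0740 to 0.40 leaving out 1 library). Irf7 became -0.14 on both strands (-0.19 to 0.26). Without 409 and 411, Ifit3 became -0.0518 (-0.16 to 0.31), Usp18 0.23 (-0.39 to 0.12) and Rsad2 -0.28 (-0.37 to 0.39), and limma weights gave 0.20 for Usp18 and -0.42 for Rsad2. Leaving out 1 library moved Oasl2 between -0.52 and 0.0466 and Bst2 between -0.49 and 0.19. In Het Hit 2 against WT DMSO, Ifit3 became -0.00413 with DESeq2, -0.00391 with RLE factors, -0.0106 without a filter, -0.30 with a sex covariate and -0.00705 without 409 and 411 (-0.31 to 0.16 leaving out 1 library). Isg15 became 0.0923 on both strands and 0.15 with the sex covariate (-0.45 to 0.19). Ifi27 became -0.00389 with limma weights (-0.11 to 0.46), and Bst2 ranged from -0.35 to 0.00481.

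Over all genes, the 1 called in Het DMSO against WT DMSO became 43 with DESeq2, 98 with limma weights, 18 without 409 and 411, 0 with only these groups in the fit, and 0 (without 429) to 9 (without 411) leaving out 1 library. The 1 called in Het Hit 2 against WT DMSO became 24 with DESeq2, 221 with limma weights, 90 without 409 and 411, 54 with only these groups, 4 without a filter, 2 on both strands, 0 with the sex covariate, and 0 (without 410) to 14 (without 411) leaving out 1 library. The 1 called among the 3 groups became 41 with DESeq2, 151 with limma weights, 54 without 409 and 411, 4 without a filter, 3 on both strands, and 1 to 11 leaving out 1 library. Het Hit 2 against Het DMSO had 0 called throughout.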
